A study of Mus musculus with 4 samples.

Results

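The 10 osteogenic, chondrogenic and mineral regulators described here are the transcription factors Runx2, Sp7 and Sox9, the mineral enzymes Alpl, Enpp1 and Phex, and the matrix proteins Mgp, Bglap, Ibsp and Dmp1. They are a named list of 10 genes among the 32285 in the matrices, chosen by name with earlier results of these data known. The cells were C3H10T1/2, a mouse line of mesenchymal progenitor cells (MPC), carrying a lentiviral transgene for human histone H3 driven by the EF1 promoter and selected with puromycin. The transgene encoded either wild-type H3 (H3WT) or H3 with cysteine in place of arginine 26 (H3R26C). Each genotype was profiled with vehicle (DMSO) or with 5-azacitidine (5-Aza, an inhibitor of DNA methyltransferases), at 3 µM for 24 h with collection on day 28, in 1 library per condition. The comparisons ask how the 2 genotypes differ before and after this cue to differentiate. The day of collection of the DMSO cells is not given in the sources used here, so treatment and time in culture cannot be told apart. The transgene is human and is not counted against the mouse reference, so the matrices hold no check of the genotype labels.

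Bone formation is built on a short cascade. Runx2 commits mesenchymal cells to the osteoblast lineage and Sp7 (osterix) acts below it, while Sox9 directs the cartilage lineage. Alkaline phosphatase (Alpl) removes the mineralization inhibitor pyrophosphate, Enpp1 makes pyrophosphate, and matrix Gla protein (Mgp) holds back calcification. Osteocalcin (Bglap), bone sialoprotein (Ibsp) and dentin matrix protein 1 (Dmp1) are matrix proteins of osteoblasts and osteocytes, and Phex is an endopeptidase of these cells whose loss causes phosphate wasting. Osteopontin (Spp1) binds mineral and is the gene whose high counts define one set of cells examined here.

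After a filter of at least 5000 unique molecular identifiers (UMIs), at least 1500 genes and at most 20% mitochondrial UMIs, the 4 libraries kept 3710 to 7619 cells and 84060490 to 110712425 UMIs. Median depth was 22420 UMIs per cell in H3WT DMSO, 16598 in H3R26C DMSO and 13149 and 13123 in the H3WT and H3R26C 5-Aza libraries. All 8 mesenchymal progenitor markers had a mean of at least 1 CPM (UMIs per 1000000 of a library) in every comparison, and the pairs of libraries shared 24 to 58 kept barcodes. Cells with at least 3 of 13 skeletal muscle markers made up 17.5% and 19.1% of the H3WT and H3R26C 5-Aza libraries, and none were found with DMSO. This is a gate on counts and not a cell type. In H3WT 5-Aza the gated cells held Sox9 at 262 CPM against 321 CPM in the others, and Dmp1 at 9.67 against 9.02 CPM. Levels are summed UMIs of a library in CPM, with exact Poisson intervals at 95%. There are no replicates, so the intervals cover counting error only, no test between conditions was possible, and a difference beyond counting error is a difference between these libraries. The intervals of levels and ratios treat UMIs as independent. The UMIs of a gene cluster in cells, so these intervals are too narrow for uneven genes such as Mgp.

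Runx2 (ENSMUSG00000039153, GRCm38 chromosome 17, 44495987 to 44814797) was the only osteoblast transcription factor of the list with a measurable level. It was at 48.1 CPM (46.7 to 49.6) in H3WT DMSO, 40.5 CPM (39.2 to 41.9) in H3R26C DMSO, 31.96 CPM (30.8 to 33.2) in H3WT 5-Aza and 31.4 CPM (30.4 to 32.5) in H3R26C 5-Aza. Both 5-Aza libraries were thus below both DMSO libraries, and the 5-Aza libraries did not differ from each other beyond counting error, with a ratio of 0.983 (0.935 to 1.03). The 5-Aza to DMSO ratio was 0.664 (0.632 to 0.697) in H3WT and 0.776 (0.740 to 0.813) in H3R26C. After each cell was thinned to 5000 UMIs, 20.6% of H3WT DMSO, 18.2% of H3R26C DMSO, 15.3% of H3WT 5-Aza and 15.4% of H3R26C 5-Aza cells held a Runx2 UMI. Without thinning the shares were 61.8%, 48.1%, 33.3% and 34.0%.

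Sp7 (ENSMUSG00000060284, chromosome 15, 102356606 to 102367182) was at the edge of detection in all libraries. It had 2 UMIs in H3WT DMSO, 3 in H3WT 5-Aza, 4 in H3R26C DMSO and 7 in H3R26C 5-Aza, with no more than 1 in any cell. The 5-Aza to DMSO ratios were 1.54 (0.177 to 18.5) in H3WT and 1.33 (0.338 to 6.19) in H3R26C, intervals that allow a large change either way. The upper bound of its level was 0.130 CPM, in H3R26C 5-Aza.

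Sox9 (ENSMUSG00000000567, chromosome 11, 112782224 to 112787760), the cartilage regulator, was well expressed and was lowest in H3R26C 5-Aza. Its level was 386 CPM (382 to 391) in H3WT DMSO, 311 CPM (307 to 315) in H3WT 5-Aza, 309.6 CPM (306 to 313) in H3R26C DMSO and 189 CPM (187 to 192) in H3R26C 5-Aza. The middle pair did not differ beyond counting error, with a ratio of 1.01 (0.988 to 1.02). The 5-Aza to DMSO ratio was 0.805 (0.792 to 0.818) in H3WT and 0.611 (0.600 to 0.622) in H3R26C, and neither reached 2-fold. The thinned share of cells was 74.3% in H3WT DMSO, 65.0% in H3WT 5-Aza, 67.4% in H3R26C DMSO and 50.7% in H3R26C 5-Aza, against 95.5%, 84.8%, 91.2% and 74.3% without thinning.

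The osteoblast products Alpl, Bglap and Ibsp were at or below 0.406 CPM in every library, except Alpl in H3R26C 5-Aza. Alpl (ENSMUSG00000028766, chromosome 4, 137741733 to 137796384) had 8 UMIs in H3WT DMSO and 14 each in H3R26C DMSO and H3WT 5-Aza, but 185 in H3R26C 5-Aza. At 1.67 CPM (1.44 to 1.93) the H3R26C 5-Aza library was 10.0 times H3R26C DMSO (5.83 to 18.7) and 10.1 times H3WT 5-Aza (5.85 to 18.8), while the other 3 libraries lay at 0.0921 to 0.167 CPM. In that library 1.96% of cells held an Alpl UMI before thinning and 0.761% (0.579% to 0.983%) after it, and no cell held more than 4. Alpl stayed under the mean of 1 CPM required for a 2-fold call in every comparison. With library totals that leave out mitochondrial and ribosomal protein genes it passed that minimum, and was called higher in H3R26C 5-Aza than in H3R26C DMSO and H3WT 5-Aza, at log2(CPM + 1) ratios of 1.34 and 1.35. It passed only through its level in H3R26C 5-Aza, so the call follows from the minimum and adds no support.

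Ibsp (ENSMUSG00000029306, chromosome 5, 104299171 to 104311469) had 1 UMI in H3WT DMSO, 4 in H3WT 5-Aza, 8 in H3R26C DMSO and 11 in H3R26C 5-Aza. Neighbouring libraries in this order did not differ beyond counting error. Between the DMSO libraries, with 8 against 1 UMIs, the ratio of H3R26C to H3WT was 8.27 (1.11 to 367), an interval that just leaves out 1. With 5-Aza this ratio was 2.10 (0.621 to 9.02). Bglap (ENSMUSG00000074483, chromosome 3, 88383501 to 88384464) had 3 UMIs in H3WT DMSO, 20 in H3WT 5-Aza, 6 in H3R26C DMSO and 45 in H3R26C 5-Aza. Both 5-Aza libraries held more than their controls, by 6.87 times (2.04 to 36.1) in H3WT and 5.69 times (2.42 to 16.3) in H3R26C. Without the cells that held at least 3 muscle markers the ratios were 6.17 (1.75 to 33.3) in H3WT and 2.47 (0.917 to 7.70) in H3R26C, so in H3R26C the difference was then within counting error. H3R26C against H3WT with 5-Aza then stood at 0.826 (0.383 to 1.79).

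Bglap lies beside the near-identical copies Bglap2 and Bglap3, between which reads can be split or lost, so its counts are uncertain. Bglap2 had 111 UMIs in H3WT DMSO, 362 in H3WT 5-Aza, 38 in H3R26C DMSO and 399 in H3R26C 5-Aza, the same order by treatment. Cells with muscle RNA, which carried 16.6% and 17.9% of all UMIs in the H3WT and H3R26C 5-Aza libraries, held 141 of the 362 and 213 of the 399 Bglap2 UMIs. They also held 29 of the 45 Bglap UMIs in H3R26C 5-Aza, where Bglap was at 1.46 CPM in them and 0.176 CPM in the other cells, a ratio of 8.29 (4.35 to 16.3). In H3WT 5-Aza the same ratio was 1.68 (0.478 to 4.86). In the 181 H3R26C cells with at least 8 of the 13 muscle markers Bglap reached 6.21 CPM, and 0 of them held Alpl, Sp7 or Ibsp after thinning, which allows a share of each up to 2.02%. The part of the muscle RNA in the Bglap counts was not tested.

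Dmp1 (ENSMUSG00000029307, chromosome 5, 104202613 to 104214102) was the 1 late bone matrix gene of the list that was clearly expressed, and it was higher with 5-Aza in both genotypes. It was at 3.43 CPM (3.05 to 3.84) in H3WT DMSO, 9.13 CPM (8.50 to 9.80) in H3WT 5-Aza, 5.38 CPM (4.89 to 5.90) in H3R26C DMSO and 23.0 CPM (22.1 to 23.9) in H3R26C 5-Aza. All 4 levels differed beyond counting error. The 5-Aza to DMSO ratio was 2.66 (2.33 to 3.05) in H3WT and 4.28 (3.87 to 4.74) in H3R26C, and H3R26C was 2.52 times (2.32 to 2.74) H3WT with 5-Aza. The thinned share of cells was 1.43% in H3WT DMSO, 3.42% in H3WT 5-Aza, 2.12% in H3R26C DMSO and 8.30% (7.69% to 8.94%) in H3R26C 5-Aza, against 5.31%, 7.84%, 6.69% and 17.2% without thinning. A few cells carried much of it: the top 1% of cells held 42.3% of the Dmp1 UMIs in H3WT DMSO and 23.2% in H3R26C 5-Aza.

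Dmp1 and Ibsp belong to the family of secreted phosphoproteins that also holds Dspp, Mepe and Spp1, and the 5 genes stand in a row over 270.339 kb of chromosome 5. Spp1, the last gene of the row, was at 275 CPM in H3WT DMSO, 847 CPM in H3WT 5-Aza, 476 CPM in H3R26C DMSO and 4905 CPM in H3R26C 5-Aza, the same order as Dmp1. Between them stand Ibsp and Mepe, and Mepe had at most 6 UMIs in a library. Dspp, at the other end, had 2 UMIs in H3WT 5-Aza and 0 in the other libraries, which allows up to 0.0333 CPM in H3R26C 5-Aza and 0.0439 CPM in H3R26C DMSO. The windows around the starts of Dmp1, Ibsp and Spp1 are shown because Dmp1 and Spp1 were higher with 5-Aza in both genotypes while Ibsp, between them, stayed at the edge of detection. They are given from 250 bases before to 50 bases after the start, from RefSeq on GRCm38.p6, at chr5:104202367-104202666, chr5:104299037-104299336 and chr5:104434861-104435160 on the plus strand, with capitals marking the hexamer TGTGGT of RUNX factors or its reverse complement ACCACA:
Dmp1: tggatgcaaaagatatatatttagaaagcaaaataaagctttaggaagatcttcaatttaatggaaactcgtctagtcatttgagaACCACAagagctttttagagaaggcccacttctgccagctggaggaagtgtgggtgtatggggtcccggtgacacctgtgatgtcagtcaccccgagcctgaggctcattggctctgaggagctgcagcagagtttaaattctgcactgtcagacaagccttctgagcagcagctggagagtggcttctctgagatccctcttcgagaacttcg
Ibsp: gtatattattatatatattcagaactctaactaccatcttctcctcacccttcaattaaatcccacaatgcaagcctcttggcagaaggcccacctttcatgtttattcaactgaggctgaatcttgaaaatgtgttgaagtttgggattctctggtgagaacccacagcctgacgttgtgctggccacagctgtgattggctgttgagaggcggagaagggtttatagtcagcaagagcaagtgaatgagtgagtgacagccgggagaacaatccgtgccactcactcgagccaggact
Spp1: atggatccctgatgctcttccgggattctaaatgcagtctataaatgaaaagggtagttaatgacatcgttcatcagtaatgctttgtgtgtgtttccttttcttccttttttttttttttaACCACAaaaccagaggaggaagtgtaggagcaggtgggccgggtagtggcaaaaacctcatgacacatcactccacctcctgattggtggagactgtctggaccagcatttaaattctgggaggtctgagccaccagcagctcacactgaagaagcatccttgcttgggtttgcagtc

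The hexamer occurred once in the Dmp1 window, once in the Spp1 window and not in the Ibsp window, and 16.8% of all 32851 windows in the RefSeq table hold it. It occurred 3 times at Runx2, once at Bglap and once at Enpp1, and was not found at Phex or Alpl. In the window of Mepe, which stands in the same row and had at most 6 UMIs in a library, it occurred 2 times. Its presence thus did not follow the levels along the row. A match of letters is no evidence of binding. Of the 10 genes, 7 had a window. The Alpl and Enpp1 windows held 26 and 22 CpG dinucleotides, more than 83.1% and 76.9% of all windows, whose median was 7. The windows of Runx2, Phex, Bglap, Dmp1 and Ibsp held 2 to 5. DNA methylation was not measured in these files.

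**Figure D1:**
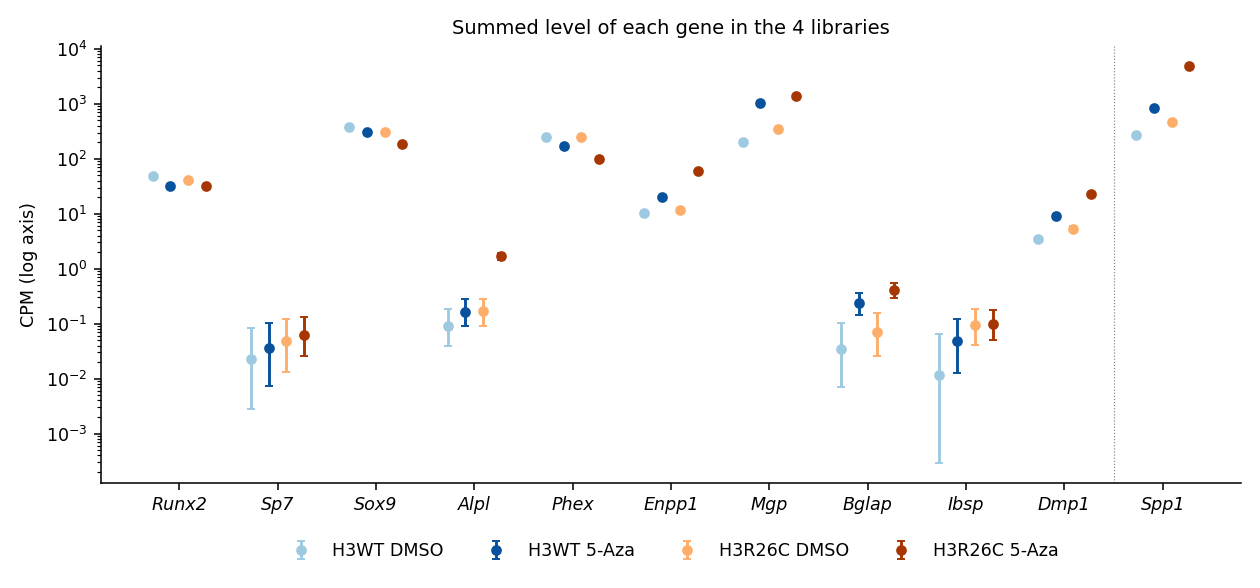
Summed level of the 10 genes and of Spp1 (right of the dotted line) in the 4 libraries, in CPM on a log axis, with points for libraries and bars for exact 95% Poisson intervals. Sp7, Alpl, Bglap and Ibsp lie below 1 CPM except Alpl in H3R26C 5-Aza at 1.67 CPM, while Mgp reaches 1414 CPM in that library.

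Phex (ENSMUSG00000057457, chromosome X, 157162075 to 157415312) was lower with 5-Aza beyond counting error in both genotypes, and in H3R26C it was the only member to pass 2-fold downward. It was at 250.01 CPM (247 to 253) in H3WT DMSO, 173 CPM (170.0 to 176) in H3WT 5-Aza, 246 CPM (243 to 249.6) in H3R26C DMSO and 100.2 CPM (98.3 to 102) in H3R26C 5-Aza. The DMSO libraries did not differ beyond counting error, with a ratio of 0.985 (0.966 to 1.004) for H3R26C against H3WT. The 5-Aza to DMSO ratio was 0.691 (0.677 to 0.706) in H3WT and 0.407 (0.398 to 0.416) in H3R26C, so that with 5-Aza H3R26C stood at 0.580 (0.566 to 0.594) of H3WT. The thinned share of cells with a Phex UMI was 55.2% and 56.4% in the H3WT and H3R26C DMSO libraries and 42.8% and 30.03% in the 5-Aza libraries. Without thinning the shares were 78.0%, 76.3%, 61.2% and 47.3%.

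The mineralization inhibitors moved the other way. Enpp1 (ENSMUSG00000037370, chromosome 10, 24637914 to 24712159) was at 10.4 CPM (9.73 to 11.1) in H3WT DMSO, 20.3 CPM (19.3 to 21.3) in H3WT 5-Aza, 11.6 CPM (10.9 to 12.3) in H3R26C DMSO and 60.4 CPM (59.0 to 61.9) in H3R26C 5-Aza. The ratio of 5-Aza to DMSO was 1.95 (1.80 to 2.12) in H3WT, just short of 2-fold, and 5.21 (4.87 to 5.57) in H3R26C. With 5-Aza, H3R26C was 2.98 times (2.82 to 3.14) H3WT, the largest genotype ratio among the 6 members that passed the minimum. The thinned share of cells was 5.18%, 8.76%, 5.99% and 23.4% in the same order, and 19.3%, 20.3%, 16.8% and 44.9% without thinning.

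Mgp (ENSMUSG00000030218, chromosome 6, 136872435 to 136875823) was at 199 CPM (196 to 202) in H3WT DMSO, 1020.4 CPM (1014 to 1027) in H3WT 5-Aza, 352 CPM (348 to 356) in H3R26C DMSO and 1414 CPM (1407 to 1421) in H3R26C 5-Aza. It rose 5.14-fold (5.05 to 5.22) with 5-Aza in H3WT and 4.02-fold (3.97 to 4.07) in H3R26C. H3R26C exceeded H3WT by 1.77 times (1.74 to 1.81) with DMSO and by 1.39 times (1.37 to 1.40) with 5-Aza. The thinned share of cells was 33.7%, 63.0%, 46.0% and 80.6% in the order H3WT DMSO, H3WT 5-Aza, H3R26C DMSO and H3R26C 5-Aza, and 56.5%, 77.0%, 65.6% and 90.7% without thinning. Its counts were uneven among cells, with up to 849 UMIs in a single H3R26C 5-Aza cell and 20.2% of the H3WT DMSO UMIs in the top 1% of cells.

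Cells rich in muscle RNA, with at least 8 of the 13 muscle markers, were taken as a rough guide to the level that RNA from outside the cell could leave. They are no clean baseline, because doublets were not removed and they were not low in every member. Bglap was at 6.21 CPM in them against 0.406 CPM in the whole library in H3R26C, and at 1.43 against 0.237 CPM in H3WT. The limit of 8 markers was chosen after the values were seen. Only the 5-Aza libraries held such cells, 131 in H3WT and 181 in H3R26C with medians of 13945 and 20395 UMIs, against 13149 and 13123 in the whole libraries. In H3R26C they held Mgp in 37.0%, Sox9 in 26.5%, Runx2 in 9.39%, Enpp1 in 7.18%, Phex in 6.08% and Dmp1 in 1.66% of thinned cells, in each case below the share of the whole library. In H3WT the shares were 30.5%, 27.5%, 7.63%, 3.05%, 14.5% and 1.53%, and the interval for Dmp1, 0.185% to 5.41%, included the 3.42% of the whole library. Spp1 was present in 83.4% of the muscle-rich H3R26C cells and 29.01% of the muscle-rich H3WT cells, and the part of such RNA in the Spp1 counts of other cells was not tested.

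A member was called changed where its level differed at least 2-fold on the log2(CPM + 1) scale with a mean of at least 1 CPM over the pair of libraries. Runx2, Sox9, Phex, Enpp1, Mgp and Dmp1, 6 of the 10, passed this minimum in each comparison, while Sp7, Alpl, Bglap and Ibsp did not. The 4 comparisons share libraries and are not independent. With 5-Aza in H3WT, 2 members were higher (Mgp and Dmp1) and 0 lower, where 4.26% of all genes tested were higher and 0.276% lower. With 5-Aza in H3R26C, 3 were higher (Enpp1, Mgp and Dmp1) and 1 lower (Phex), where 8.04% of genes were higher and 3.09% lower.

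Between genotypes with DMSO, 0 members passed in either direction, against 1.82% and 0.589% of genes. With 5-Aza, Enpp1 and Dmp1 were higher in H3R26C and 0 members were lower, against 4.79% and 2.64% of genes. The median log2 ratio of the 6 members was 0.29 for 5-Aza in H3WT, 0.78 for 5-Aza in H3R26C, 0.06 between genotypes with DMSO and 0.22 between genotypes with 5-Aza, and the medians over all genes were between -0.03 and 0.04.

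**Figure D2:**
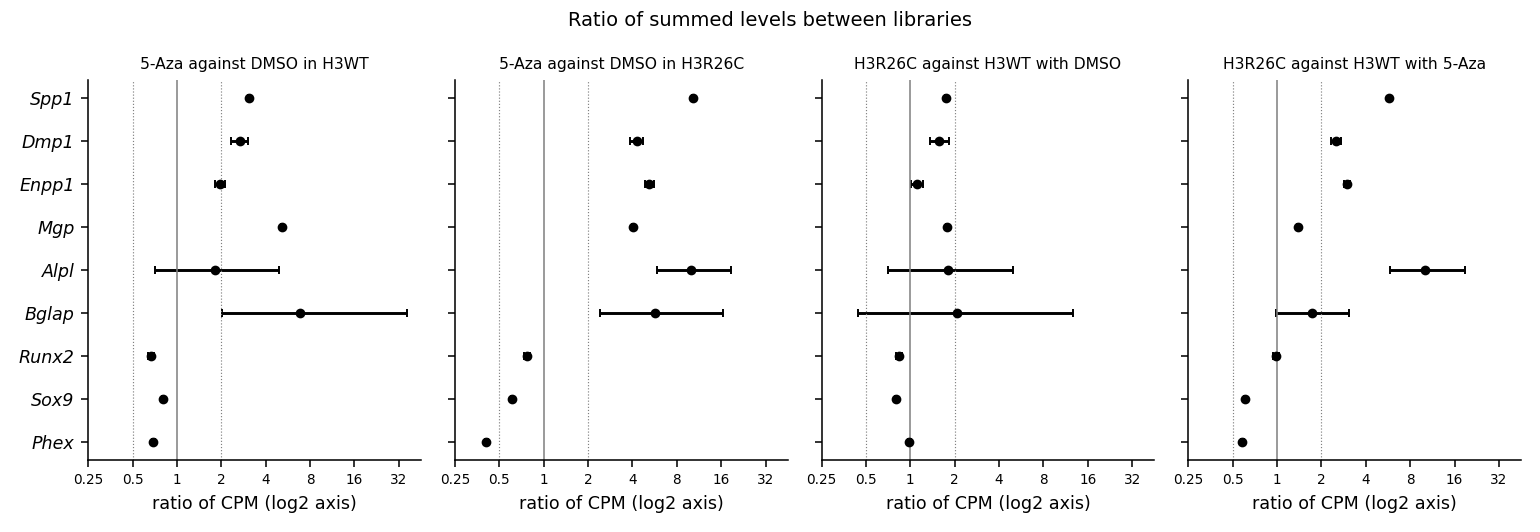
Ratio of CPM between libraries on a log2 axis for the 6 members that passed the minimum level, for Alpl and Bglap, which did not, and for Spp1. There is 1 panel per comparison, with bars for exact 95% counting intervals, a solid line at 1 and dotted lines at 2-fold. Dmp1, Enpp1 and Mgp lie to the right and Runx2, Sox9 and Phex to the left of 1 in both comparisons of 5-Aza with DMSO.

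Spp1 is expressed by osteoblasts among other cells, so the cells with 10 or more Spp1 UMIs (Spp1-high cells) were examined for the other bone genes. They numbered 527 (14.2%) in H3WT DMSO, 1654 (27.6%) in H3WT 5-Aza, 790 (16.7%) in H3R26C DMSO and 5591 (73.4%) in H3R26C 5-Aza. A count limit favours deep cells: the Spp1-high cells had medians of 13658 to 28408 UMIs against 11830.5 to 21779 in the other cells of the same libraries. Requiring the 10 UMIs after thinning left 107, 717, 326 and 4400 cells in the same order of libraries. The limit does not mark the same contrast in each library. In the other cells Spp1 was at 36.5, 122, 47.1 and 266 CPM, in the same order. In the muscle-rich cells, the rough guide used above, it was at 340 CPM in H3WT 5-Aza and 2029 CPM in H3R26C 5-Aza. The part of RNA from outside the cell in this gate was not tested.

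Few Spp1-high cells held a UMI of the bone genes Sp7, Alpl, Bglap or Ibsp. Of them, 2 of 527 cells in H3WT DMSO, 19 of 1654 in H3WT 5-Aza, 7 of 790 in H3R26C DMSO and 165 of 5591 in H3R26C 5-Aza held any of these 4 genes. Without thinning, these are shares of 0.380%, 1.15%, 0.886% and 2.95% (2.52% to 3.43%), against 0.377%, 0.461%, 0.610% and 1.53% (1.04% to 2.16%) of the other cells. Such shares rise with depth, and the Spp1-high cells were deeper. After thinning, Alpl was held by 0.876% (0.649% to 1.16%) of the Spp1-high cells of H3R26C 5-Aza. The share of the others was 0.444% (0.203% to 0.841%), and these intervals overlap. In H3R26C 5-Aza the UMIs were mostly of Alpl, with 165 Alpl UMIs in the Spp1-high cells and 20 in the others, a CPM ratio of 2.43 (1.53 to 4.09). No Spp1-high cell held more than 1 of the 4 genes, 1 other cell in H3R26C DMSO did, and no cell held Sp7 together with Bglap. Of the 5591 Spp1-high cells of H3R26C 5-Aza, 131 held Alpl, 22 Bglap, 8 Ibsp and 4 Sp7. With so few cells, overlap would be rare even if the genes were held independently. Its absence is therefore no sign that they are expressed apart, and how far they are expressed together was not tested. Bglap2, which has more UMIs than Bglap, is not among these 4 genes. Its CPM ratio of Spp1-high to other cells was 1.94 (1.26 to 2.94) in H3WT DMSO and 1.60 (1.30 to 1.99) in H3WT 5-Aza. In H3R26C it was 0.689 (0.236 to 1.67) with DMSO and 0.756 (0.606 to 0.949) with 5-Aza. Without thinning, 4.59% of Spp1-high cells in H3WT 5-Aza and 3.02% in H3R26C 5-Aza held it, against 2.30% and 3.55% of the others.

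Runx2 itself was nearly flat. Its level in Spp1-high and other cells was 49.0 and 47.9 CPM in H3WT DMSO, 34.4 and 30.8 CPM in H3WT 5-Aza, 40.7 and 40.5 CPM in H3R26C DMSO and 31.0 and 32.9 CPM in H3R26C 5-Aza. The ratio left 1 outside its interval in H3WT 5-Aza alone, at 1.12 (1.03 to 1.21). In the other libraries the level was not distinguishable between the sets of cells.

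Dmp1 was higher in the Spp1-high cells of every library. It was at 7.76 against 2.45 CPM in H3WT DMSO, 19.7 against 4.10 CPM in H3WT 5-Aza, 10.7 against 3.92 CPM in H3R26C DMSO and 27.3 against 8.29 CPM in H3R26C 5-Aza. The ratios were 3.17 (2.50 to 4.02), 4.80 (4.11 to 5.62), 2.74 (2.26 to 3.31) and 3.30 (2.86 to 3.82). With the 10 UMIs counted after thinning they were 2.87 to 5.09. Of all Dmp1 UMIs, 41.9%, 69.6%, 42.7% and 91.8% fell in Spp1-high cells, which carried 18.6%, 32.3%, 21.4% and 77.2% of all UMIs. Even so, only 10.0% (9.26% to 10.9%) of the thinned Spp1-high cells of H3R26C 5-Aza held a Dmp1 UMI, against 3.501% (2.74% to 4.40%) of the others.

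Phex showed the opposite pattern, lower in the Spp1-high cells of every library. It was at 146 against 274 CPM in H3WT DMSO, 151 against 183 CPM in H3WT 5-Aza, 58.6 against 297 CPM in H3R26C DMSO and 73.8 against 189.7 CPM in H3R26C 5-Aza. The ratios were 0.532 (0.510 to 0.556), 0.826 (0.796 to 0.856), 0.197 (0.185 to 0.210) and 0.389 (0.375 to 0.404), so the difference was smallest in H3WT 5-Aza. In H3R26C DMSO, 21.8% (18.9% to 24.8%) of thinned Spp1-high cells held Phex against 63.4% (61.9% to 64.9%) of the others. With the 10 UMIs counted after thinning the ratios were 0.566, 0.794, 0.167 and 0.451.

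Sox9 was higher in Spp1-high cells in all 4 libraries, with ratios of 1.39 (1.36 to 1.43) in H3WT DMSO, 1.08 (1.05 to 1.10) in H3WT 5-Aza, 1.35 (1.31 to 1.39) in H3R26C DMSO and 1.29 (1.25 to 1.34) in H3R26C 5-Aza. This ran against its order between libraries, where Sox9 was lowest in the library richest in Spp1. Enpp1 was higher in H3WT DMSO at 1.54 (1.32 to 1.79), in H3WT 5-Aza at 2.01 (1.83 to 2.22) and in H3R26C 5-Aza at 1.29 (1.21 to 1.37), and its interval held 1 in H3R26C DMSO at 1.10 (0.946 to 1.28). Mgp was higher in H3WT DMSO at 1.70 (1.64 to 1.75), H3WT 5-Aza at 2.05 (2.02 to 2.08) and H3R26C 5-Aza at 1.24 (1.23 to 1.26). In H3R26C DMSO it was at 344 against 354 CPM, a ratio of 0.970 (0.943 to 0.997) that turned to 1.17 (1.14 to 1.21) without the top 5% of cells by UMIs.

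Because cells are many and counts large, a counting interval leaves out 1 for many genes. In the Spp1-high cells of H3WT DMSO, 31.7% of genes at 1 CPM or more were higher and 22.2% lower, and 4 and 1 of the 6 members that passed were. The shares of genes were 28% and 26.2% in H3WT 5-Aza with 5 and 1 of 6 members. They were 31.2% and 37.2% in H3R26C DMSO with 2 and 2 of 6, and 29.5% and 38.2% in H3R26C 5-Aza with 5 and 1 of 7, where Alpl also passed. Alpl passed only through the Spp1-high cells, at 1.93 CPM against 0.793 CPM in the others, so its place among the 5 is no added support. In size, Dmp1 stood above 97.8%, 99.9%, 96.3% and 99.0% of genes in the 4 libraries, and Phex stood above 2.39%, 16.2%, 0.806% and 1.71%.

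**Figure D3:**
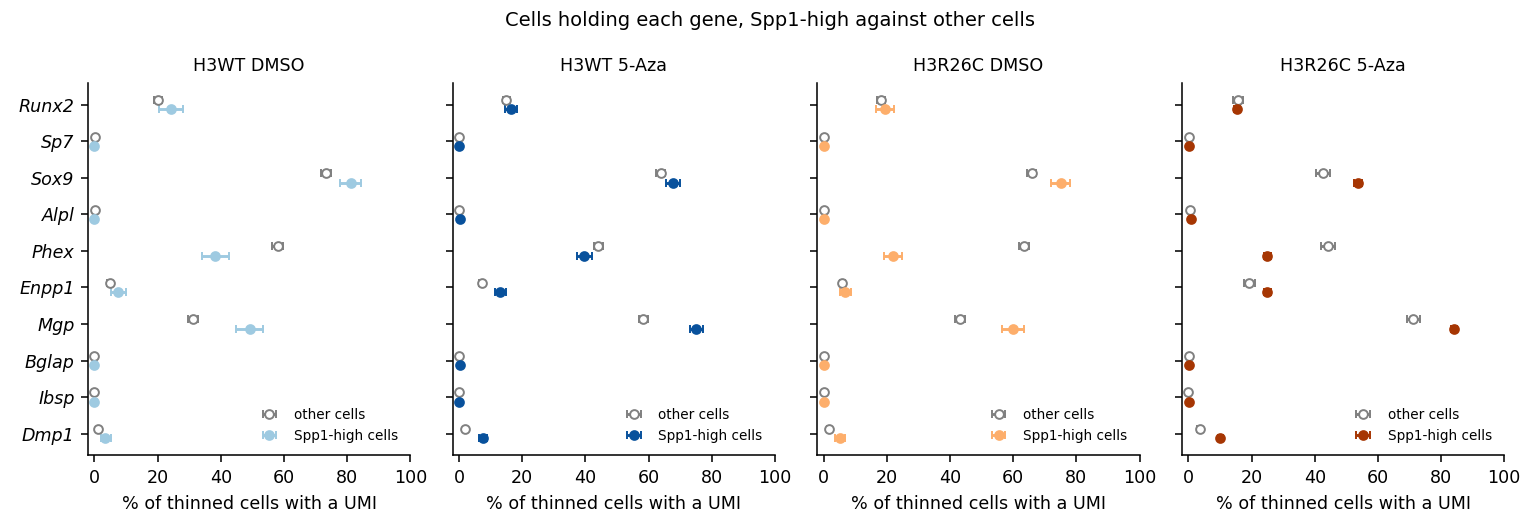
Share of cells, thinned to 5000 UMIs, that held a UMI of each gene among Spp1-high cells (filled) and other cells (open) in each library, with exact 95% binomial intervals. Sp7, Alpl, Bglap and Ibsp lie near 0 in both sets, and Phex is the member whose filled point lies well to the left, at 21.8% against 63.4% in H3R26C DMSO.

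The levels of Dmp1 and Phex differed with the Spp1 count of thinned cells in each library. In H3R26C 5-Aza, Dmp1 was at 5.28 CPM (3.13 to 8.34) in cells with 0 Spp1 UMIs, 15.3 CPM (12.7 to 18.3) in those with 3 to 9, and 42.0 CPM (38.1 to 46.2) in those with 30 or more. Phex went from 219 CPM (203 to 235) to 119 CPM (112 to 127) and 66.1 CPM (61.3 to 71.3) over the same cells. In H3WT 5-Aza, Dmp1 went from 2.85 CPM (2.05 to 3.85) to 37.5 CPM (23.2 to 57.3), while Phex went from 192 CPM (185 to 199) to 109 CPM (83.3 to 139.9). In H3R26C DMSO, Dmp1 went from 2.92 CPM (2.16 to 3.85) at 0 UMIs to 16.9 CPM (10.9 to 24.9) at 10 to 29. Phex went there from 334 CPM (325 to 342.5) to 59.5 CPM (47.7 to 73.3). In H3WT DMSO, Dmp1 went from 2.34 CPM (1.61 to 3.28) to 10 CPM (3.25 to 23.3) over the same range. The course of Phex was uneven in H3WT DMSO, at 286 CPM (278 to 295) at 0 UMIs, 145 CPM (127 to 165) at 3 to 9 and 172 CPM (138 to 212) at 10 to 29.

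At 0 Spp1 UMIs, Dmp1 thus lay at 2.34 to 5.28 CPM in all 4 libraries. Mgp also rose with Spp1 in H3WT 5-Aza, from 673 CPM (660 to 686) at 0 UMIs to 3611 CPM (3455 to 3772) at 30 or more, and in H3R26C 5-Aza from 1247 to 2096 CPM. Enpp1 rose in the same library from 44.6 CPM (37.8 to 52.3) to 77.4 CPM (72.1 to 83.0). At 0 Spp1 UMIs it stood there above the 12.5 CPM (10.7 to 14.4) of H3WT 5-Aza. At 30 or more, H3WT 5-Aza reached 78.6 CPM (57.1 to 105), and the intervals of both libraries overlapped.

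**Figure D4:**
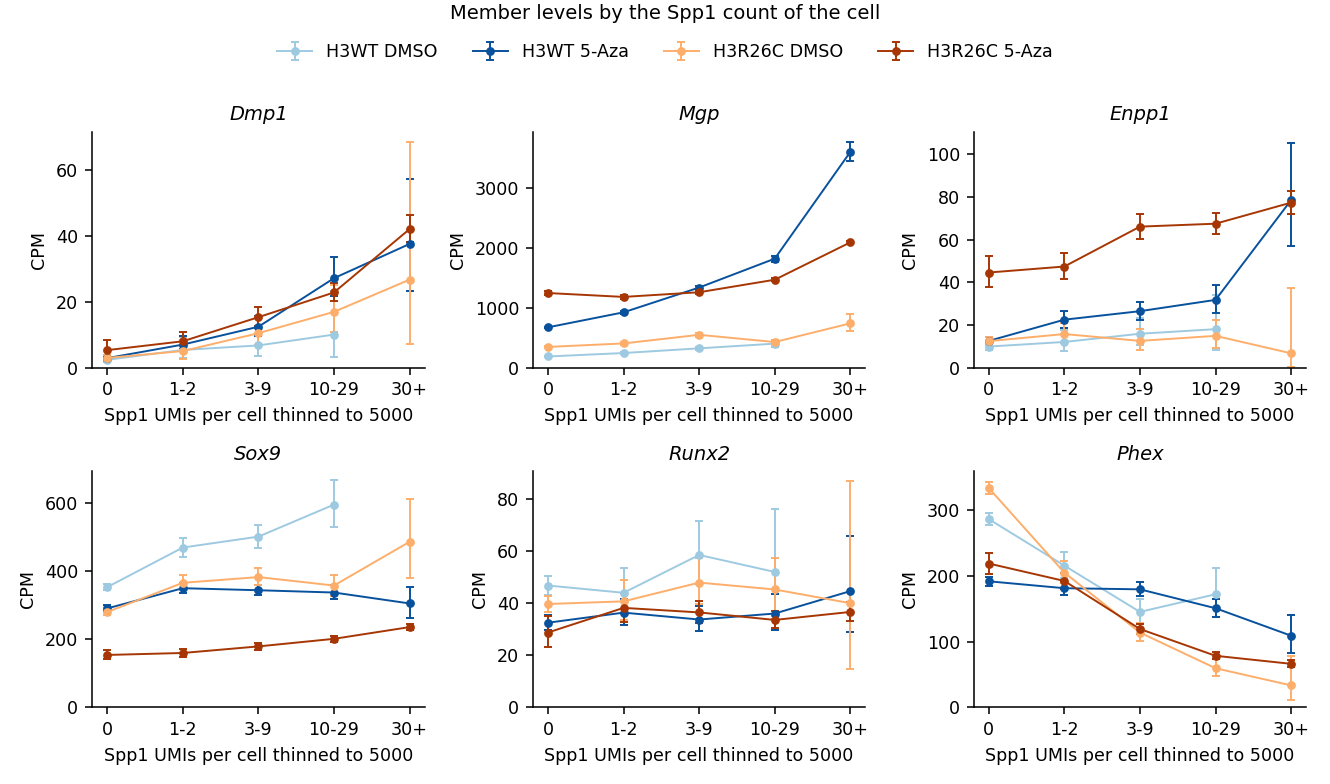
Level of 6 members, in CPM with exact 95% Poisson intervals, in cells binned by their Spp1 UMIs after thinning to 5000 UMIs, 1 line per library and without bins of fewer than 20 cells. In each library Dmp1 is higher and Phex lower in the bins of 3 or more UMIs than at 0, while Runx2 stays within 28.7 to 58.5 CPM.

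The genes most like each member within libraries were found by Pearson correlation over thinned cells, averaged over the libraries in which the gene was in at least 100 cells. The cells of a library share its depth and handling, and the values are descriptions. For Dmp1 over 3 libraries the most alike genes were Spp1 at 0.149, Sparcl1 at 0.125 and Ank at 0.106, all weak. For Mgp over 4 libraries they were Bgn at 0.322, Pcolce at 0.296 and Cst3 at 0.263, for Phex Cst3 at 0.248, Rnase4 at 0.231 and Ptn at 0.221, and for Sox9 Dbi at 0.162, Gas1 at 0.146 and Gas7 at 0.140. Enpp1 was most like Mgp at 0.104, and no gene reached 0.1 for Runx2.

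Other genes of mineral handling were read from a list of 15, of which 12, 12, 10 and 12 passed the minimum in the comparisons of 5-Aza in H3WT, 5-Aza in H3R26C, genotype with DMSO and genotype with 5-Aza. In this order 3, 2, 0 and 1 were higher by at least 2-fold and 0 were lower in any, while the shares of all genes that were higher were 4.26%, 8.04%, 1.82% and 4.79%. Ank, which passes pyrophosphate out of the cell, was at 43.8 CPM in H3WT DMSO, 73.5 CPM in H3WT 5-Aza, 62.8 CPM in H3R26C DMSO and 203 CPM in H3R26C 5-Aza. It thus stood with Enpp1, and its ratio between genotypes with 5-Aza was 2.76 (2.68 to 2.84). Gas6, a vitamin K-dependent protein like Mgp, rose from 110.5 to 237 CPM with 5-Aza in H3WT. Ahsg (fetuin-A), an inhibitor of mineral precipitation, had 0 UMIs in both DMSO libraries, 235 UMIs in H3WT 5-Aza and 661 UMIs in H3R26C 5-Aza. Ahsg thus passed the minimum only through 5-Aza in both genotypes, as did Smpd3 in H3WT, at 3.46 against 0.541 CPM. Their places among the genes counted as higher with 5-Aza follow from the minimum.

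Of 25 osteoblast and osteocyte genes, 17 or 18 passed in each comparison and 0 were higher or lower with 5-Aza in H3WT. In H3R26C, 2 of 17 rose and 1 fell with 5-Aza, where 8.04% of all genes tested rose and 3.09% fell. Omd, a keratan sulfate proteoglycan of bone, rose from 10.1 to 30.6 CPM, and Cdh11, a mesenchymal cadherin, fell from 376 to 146 CPM. In H3WT they moved the same way short of 2-fold, Omd from 12.3 to 24.1 CPM and Cdh11 from 390 to 301 CPM. Between genotypes, Vdr (the vitamin D receptor) was higher in H3R26C with DMSO at 49.5 against 15.9 CPM, and Cdh11 was lower with 5-Aza at 146 against 301 CPM. The median log2 ratio of the list was between -0.12 and 0.11 in the 4 comparisons. Col1a1, the main collagen of bone and of fibroblasts, was at 2697 to 3194 CPM in all libraries.

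Of 20 chondrocyte genes, 13 passed with 5-Aza in H3WT, where 4 rose and 0 fell, and 13 in H3R26C, where 4 rose and 3 fell. The shares of all genes were 4.26% and 0.276% in H3WT and 8.04% and 3.09% in H3R26C. Hapln1, a link protein of cartilage, rose from 1.08 to 6.78 CPM in H3WT and from 0.404 to 5.45 CPM in H3R26C. Sox5, a partner of Sox9, rose from 1.70 to 6.51 CPM and from 1.14 to 6.14 CPM. Matn3 rose from 5.01 to 17.0 CPM in H3WT, while in H3R26C Matn4 fell from 33.0 to 4.87 CPM and Col2a1, the main collagen of cartilage, from 42.1 to 16.6 CPM. In H3WT Matn4 and Col2a1 were also lower with 5-Aza, short of 2-fold, at 11.9 against 17.7 CPM and 13.3 against 23.9 CPM. The median log2 ratio of the 13 was -0.45 in H3WT and -0.20 in H3R26C.

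Between genotypes with DMSO, 3 of 11 chondrocyte genes were at least 2-fold lower in H3R26C, namely Col9a1, Cnmd and Sox6, against 0.589% of all genes. Others were higher there, short of 2-fold, with Col2a1 at 42.1 against 23.9 CPM and Matn4 at 33.0 against 17.7 CPM. The median log2 ratio of the 11 was -0.35. With 5-Aza, 5 of 13 were lower and 1 higher, where 2.64% of all genes were lower and 4.79% higher. Cnmd was at 15.3 CPM in H3WT DMSO, 9.08 CPM in H3WT 5-Aza, 3.10 CPM in H3R26C DMSO and 0.966 CPM in H3R26C 5-Aza. Acan, chosen after its values were seen, had 2 UMIs in H3WT DMSO, 3 in H3WT 5-Aza, 1 in H3R26C DMSO and 240 in H3R26C 5-Aza, where Sox9 was lowest. Acan passed the minimum only through H3R26C 5-Aza, so its place among the chondrocyte genes counted as higher there follows from the minimum. The same holds for Hapln1 with 5-Aza in H3R26C, which was at 0.404 CPM with DMSO. It also holds for Prg4 with 5-Aza in both genotypes, at 330 against 18 UMIs in H3WT and 286 against 21 in H3R26C. In level, Sox9 was lower with 5-Aza in both genotypes, and Hapln1 and Sox5 were higher in both.

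Markers of other cell types also moved between the libraries. Summed levels of the 13 muscle markers were 2.33 and 2.58 CPM in the H3WT and H3R26C DMSO libraries and 1517 and 1986 CPM with 5-Aza. With 5-Aza against DMSO, 11 and 13 of them passed the minimum and all of these were higher, where 4.26% and 8.04% of all genes were. Except for Tnnt3 in H3R26C, at 1.13 CPM with DMSO, they passed only through 5-Aza, so these calls follow from the minimum. The 13 adipocyte markers summed to 206, 420, 275 and 243 CPM in the order H3WT DMSO, H3WT 5-Aza, H3R26C DMSO and H3R26C 5-Aza. The 6 markers of macrophages and blood and the 5 of endothelium summed to at most 14.2 and 10.6 CPM, and the 5 of smooth muscle to 277 to 550.3 CPM. Without the cells that held muscle RNA, the counts of members past 2-fold were the same in all 4 comparisons.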

How the data were processed

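The files are droplet (10X Genomics) single-cell RNA sequencing matrices, 1 library for each of 4 conditions. The authors made the counts with Cell Ranger, 6.1.0 in the file headers, on mm10 and deposited them without normalization, as whole UMI counts of 32285 genes in 39891 called barcodes. No column was left without a sample. The filter of the study's methods (at least 5000 UMIs and 1500 genes, at most 20% mitochondrial) was applied here and kept 22049 cells. Doublets were not removed. Counts were summed per library and scaled to CPM. Ratios carry exact conditional intervals and shares exact binomial (Clopper-Pearson) intervals at 95%, for counting error only, and a count of 0 was given the upper end of its interval. UMIs count molecules, with 84060490 to 110712425 per library. The intervals of levels and ratios treat them as independent, although they cluster in cells. In thinned cells of H3R26C 5-Aza the variance over the mean was 1.10 for Runx2, 2.25 for Phex, 23.7 for Mgp and 46.1 for Spp1. Such intervals are too narrow for the uneven genes, even within a library. Log2 ratios used a pseudocount of 1 CPM. Cells were thinned to 5000 UMIs with a fixed seed.

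Members and gene lists were chosen with earlier results of these data known. All 10 members are described everywhere. From each list of mineral, osteoblast and chondrocyte genes, up to 4 genes per comparison could be named, the largest ratios past 2-fold where 1 library or both reached 5 CPM, except 1 gene that is not reported here. Col2a1 and Matn4 are also given between genotypes with DMSO, where they fell short of 2-fold. So are Col2a1, Matn4, Omd and Cdh11 with 5-Aza in H3WT. Smpd3 and Prg4, which stayed under 5 CPM, are named for how they passed the minimum. Like genes were named where the mean correlation was 0.1 or more, up to 3 per member. Gene positions are from GENCODE M21 and start windows from RefSeq. The ratios and intervals were tested on simulated Poisson counts, which hold no clustering of UMIs in cells. Alternatives changed the scaling, filters, thinning, pseudocount and Spp1 limit. Python 3.11.15, numpy 2.4.6, scipy 1.17.1, pandas 2.3.3, matplotlib 3.10.9 and, for TMM factors, edgeR 4.0.16 in R 4.3.3 were used.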

Additional observations from a re-analysis of the deposited data

Results flagged for a closer look

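Bglap drew attention in the barcodes that the cell filter left out. Those of H3WT 5-Aza held 11 Bglap UMIs, a level of 1.20 CPM against 0.237 CPM in the kept cells, a ratio of 5.07 (2.20 to 11.1), and the left-out barcodes of H3WT DMSO held 0. In H3R26C 5-Aza the left-out barcodes also held 11 UMIs, at 1.57 CPM against 0.406 CPM in the kept cells. These barcodes are shallow, and Bglap shares near-identical sequence with Bglap2 and Bglap3, so the value rests on few and uncertain counts.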

How the results depend on the processing

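No paired analysis was possible because there is 1 library for each condition, and no library could be left out. Members called 2-fold higher with 5-Aza in H3WT went from 2 to 1 with a pseudocount of 5 CPM and to 1 with a minimum mean of 10 CPM, and those higher in H3R26C than H3WT with 5-Aza went from 2 to 1 with the pseudocount of 5 CPM. TMM scaling, totals without mitochondrial and ribosomal protein genes, the stricter and looser cell filters, no minimum level, the mean of per-cell CPM and the removal of cells with muscle RNA or of the top 5% by UMIs left every count of members past 2-fold within 1.5 times its value. Among these, totals without mitochondrial and ribosomal protein genes and no minimum level each added Alpl, so that members higher went from 3 to 4 for 5-Aza in H3R26C and from 2 to 3 between genotypes with 5-Aza. With the changed totals, Alpl passed the minimum only through H3R26C 5-Aza. Over those, the log2 ratios of the 6 measurable members moved by at most 0.13, for Mgp between genotypes with 5-Aza under the mean of per-cell CPM. The TMM factors were 0.969 to 1.02.

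In the Spp1-high cells of H3R26C DMSO, Mgp turned from a ratio of 0.970 to 1.17 with a limit of 5 Spp1 UMIs, 1.16 with 10 UMIs after thinning, 1.05 with a limit of 500 CPM and 1.17 without the top 5% of cells. The lower members went from 2 to 1 under each of these 4 settings, and the higher members from 2 to 4 after thinning and without the top 5%. In H3R26C 5-Aza the lower members went from 1 to 2 with a limit of 20 UMIs. Among all genes, those 2-fold higher in the 4 comparisons of the report, in its order, were 524, 1009, 219 and 607, and 223, 470, 88 and 261 with the pseudocount of 5 CPM and 157, 357, 82 and 246 with the minimum of 10 CPM. Those lower were 34, 388, 71 and 334, and 10, 192, 18 and 158, and 18, 249, 27 and 197. Sp7, Bglap and Ibsp had at most 45 UMIs in a library, and Alpl at most 14 outside H3R26C 5-Aza, so their ratios have wide intervals. Shares of cells were higher without thinning.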
